A study of Mus musculus with 19 samples.

Results

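The comparison described here sets 5 arrays of the hypo+ group against 5 arrays of the hypo group, 10 of the 19 arrays in the series, and was chosen by the array titles alone. Both groups are fetal mouse cerebral cortex of gestational day 16 from C57BL/6 dams that drank goitrogen, a blocker of thyroid hormone synthesis, in 2% sucrose water from gestational day 13. The treatment text gives the goitrogen as 1% perchlorate with 0.025% methimazole, whereas other labels call it PTU (propylthiouracil). At 12 hours before death the hypo+ dams were injected with 25 µg thyroxine (T4) and 2.5 µg triiodothyronine (T3) per 100 g body weight, intended as a replacement dose, and the hypo dams with saline. For side by side values the series also holds 5 control arrays (sucrose water without goitrogen, saline) and 4 hyper arrays (sucrose water without goitrogen, 100 µg T4 with 10 µg T3), so that the hyper dose was 4 times the hypo+ dose. Drug and hormone were given to the dam, each array carries RNA from part of the cortex of 1 fetus, and whether fetuses shared a dam is not stated, so the p-values cover only the spread among the fetuses sampled. A total of 20 dams and 4 groups is stated, and the authors removed 1 array. The labels name a rat array, but the probe sets are those of mouse. The question is which cortical transcripts a single hormone injection moves when the thyroid is blocked in all animals.

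Thyroid hormone acts in the nucleus through receptors (Thra, Thrb) that sit on DNA with retinoid X receptors and repress or activate nearby genes depending on whether T3 is bound. T4 must first be converted to T3 by the deiodinase Dio2, and membrane transporters carry the hormone into cells. In the fetal brain, maternal hormone is known to take part in the production, migration and differentiation of cortical neurons. The receptors bind a core hexamer with the letters AGGTCA, often repeated with a spacing of 4 bases.

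Array medians lay between 73.7 and 103.6 signal units in hypo and between 84.3 and 103.3 in hypo+, pairwise correlations among the 10 arrays were 0.9806 to 0.9933. Precision is limited by the number of arrays. Hypo+ replicate 1 read 68.8 for the X-inactivation RNA Xist, where the other hypo+ arrays read 7033.0 to 8120.0, and 695.9 for the Y-linked gene Ddx3y (8.8 to 10.0 on the others), although the extracts are described as female. Hyper replicate 4 showed the same pattern. Hypo replicate 4 stood apart from its group. It read 101.1 for Calcr, the calcitonin receptor gene (21.4 to 26.3 on the other hypo arrays), and 2176.0 for Neurod6, a transcription factor gene of cortical excitatory neurons (4422.2 to 4898.2). When that array was left out, 476 genes passed the threshold in place of 283, and at only 46.6% of them did hypo replicate 4 itself lie on the hypo side of the midpoint between the groups, against 74.2% to 84.0% for each other hypo array in its own turn. Values without it are given beside the named genes whose call changes when it is left out. Emx1, a homeobox gene of the dorsal cortex, read 425.8 to 687.1 on the hypo arrays and 400.6 to 535.7 on the hypo+ arrays, and all 17 listed genes of the dorsal cortex were measured.

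Hormone given under goitrogen raised 186 genes and lowered 97 of the 17967 tested (limma, adjusted p under 0.05), which is 1.04% and 0.54% of all genes and 1.58% together. The rises had a median of 0.45 and the falls a median of −0.38 on the log2(signal + 32) scale used for all changes here, while all genes had a median of −0.005 and 48.2% of them were above 0. The leading rises included genes of RNA binding, chromatin and actin turnover, imprinted and nuclear noncoding transcripts and ventral forebrain regulators. The leading falls included genes of cortical projection neurons, their progenitors and their adhesion and guidance. Of the 186 rises 161 had every hypo+ array above every hypo array, and of the 97 falls 71 had every hypo+ array below, against 2.17% and 1.61% of all genes (3.78% in either direction). At an unadjusted p under 0.05 there were 2760 genes (15.4%). Rises made up 65.7% of the calls, but the balance depended on scaling. It was 51.4% with quantile normalization (225 up, 213 down) and 39.8% when each array was centred on its median (45 up, 68 down), a scaling that moved the median of all genes to −0.076.

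The number of calls also depended on single arrays. It was 85 without hypo+ replicate 4, 112 without hypo+ replicate 3, 118 without hypo+ replicate 5 and 175 without hypo+ replicate 1, of which 84, 108, 115 and 153 were among the 283. It was 132, 185, 131 and 132 without hypo replicates 1, 2, 3 and 5. Without hypo+ replicate 1 and hyper replicate 4, the arrays with Y-linked signal, 169 genes passed (102 up, 67 down), 146 of them among the 283. When only the 10 hypo and hypo+ arrays entered the fit, 64 passed, 52 up and 12 down.

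**Figure D1:**
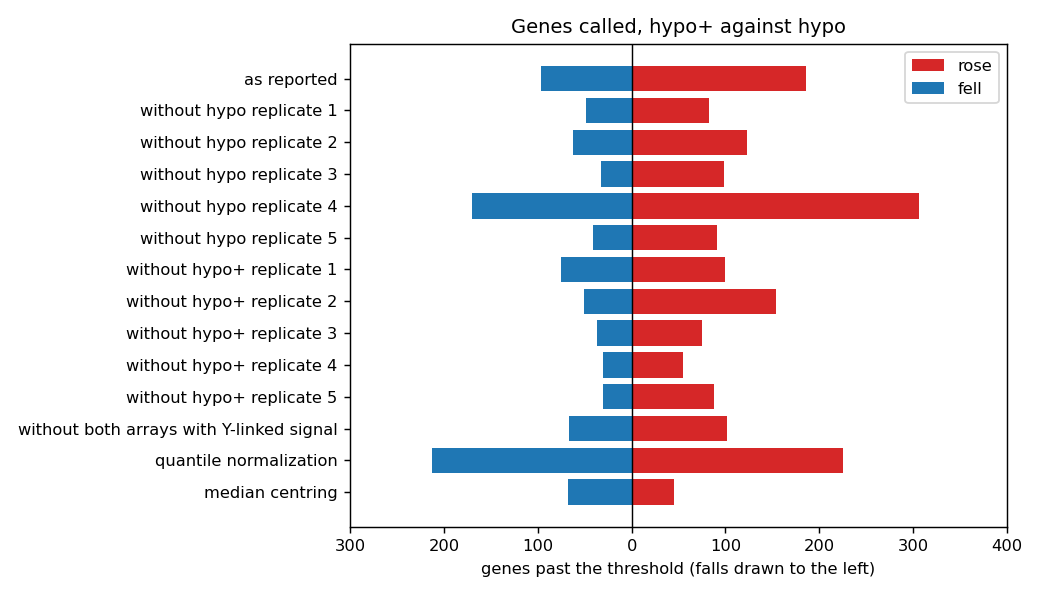
Genes past the threshold in hypo+ against hypo (x axis, number of genes; rises as red bars to the right, falls as blue bars to the left) for all arrays, with each hypo or hypo+ array left out, without both arrays with Y-linked signal, and under 2 other scalings. Among the settings that leave out 1 array, the total is highest without hypo replicate 4 (306 up, 170 down) and lowest without hypo+ replicate 4 (55 up, 30 down).

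RNA-binding proteins held several of the strongest rises. Prrc2c, which encodes a protein of stress granules, read 777.0, 1091.0, 954.5, 1305.8 and 1084.5 on hypo arrays 1 to 5 and 2166.8, 2424.2, 1979.7, 2268.9 and 2165.3 on hypo+ arrays 1 to 5. Every hypo+ array lay well above every hypo array, and the log2 change was 1.07 ± 0.12 (SE, adjusted p = 0.000216 with limma). Taf15, an RNA-binding protein gene, read 193.7, 202.4, 220.5, 210.7 and 129.9 in hypo and 379.0, 454.5, 460.0, 511.4 and 402.1 in hypo+, again with no overlap (1.09 ± 0.16, adjusted p = 0.00386). Srrm2, which encodes a scaffold protein of nuclear speckles, read 1657.1 to 2388.2 in hypo and 3076.7 to 3978.2 in hypo+ and rose by 0.75 ± 0.13 (adjusted p = 0.00791).

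Within the list of 51 RNA-binding and splicing genes, 3 rose, 0 fell and 35 had a positive value, with a median of 0.079 against −0.005 for all genes. That median was 0.009 after median centring and 0.047 without hypo replicate 4. The mean of the list's log2 deviations did not overlap between the groups, at −0.123 to −0.025 on hypo arrays and −0.016 to 0.125 on hypo+ arrays. The nearest arrays, at −0.025 and −0.016, lay closer together than the shift that median centring made in the all-gene median (−0.005 to −0.076). Whether the separation holds under that scaling was not tested. Of the 45 list scores, only those of RNA-binding, ventral forebrain and GABAergic genes did not overlap. Of the SR protein genes, whose products mark exons for splicing, Srsf1 had −0.21 and Srsf3 −0.01, and neither passed. Among genes outside the lists, Lsm11, a component of the particle that processes histone mRNA ends, read 210.8 to 313.0 in hypo and 390.8 to 461.4 in hypo+ (0.67 ± 0.09, adjusted p = 0.00386). Upf3b, which takes part in nonsense-mediated mRNA decay and was picked here after its values were seen, had the smallest p. It read 810.0, 825.4, 855.7, 896.3 and 865.9 in hypo and 1416.5, 1186.9, 1235.7, 1327.8 and 1211.2 in hypo+, a change of 0.56 ± 0.06 (adjusted p = 9.77e-05).

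Among chromatin regulators the rises were in histone modifying enzymes. Kdm6b, a demethylase that removes a repressive histone mark, read 1483.0, 1855.9, 1572.3, 2325.6 and 2186.5 in hypo and 3005.8, 3691.8, 2977.7, 3337.5 and 3350.8 in hypo+. The groups did not overlap and the change was 0.80 ± 0.13 (adjusted p = 0.00666). Kdm5b, a demethylase of an activating histone mark, rose by 0.50 (adjusted p = 0.0135), and Kmt2d, a methyltransferase that writes on the same residue, by 0.48 (adjusted p = 0.0215). The other Kdm5b probe sets had −0.28, 0.03 and 0.28, and the mean of all its probe sets had 0.13. The other Kmt2d probe set had 0.03. Kdm6a, the X-linked relative of Kdm6b, had −0.30 (adjusted p = 0.18), and the Tet enzymes, which oxidise methylated cytosine, had 0.18, 0.10 and 0.07 for Tet1, Tet2 and Tet3. In all 3 of 51 chromatin genes rose, 0 fell and 34 were positive, with a median of 0.078 that fell to 0.008 after median centring.

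**Figure D2:**
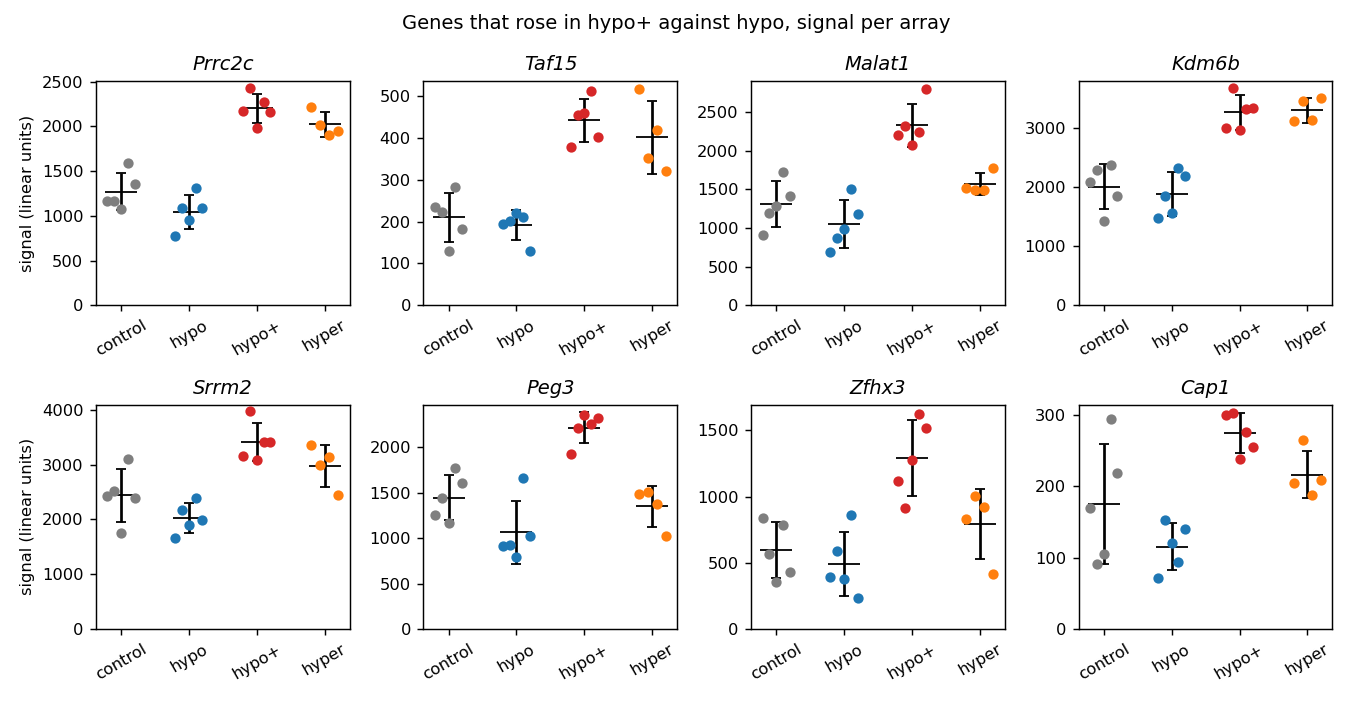
Signal per array (y axis, linear units, starting at 0) of 8 genes that rose in hypo+ against hypo, in all 4 groups. Points are arrays, horizontal bars group means and whiskers 1 SD. For each gene shown all 5 hypo+ points lie above all 5 hypo points, and for Prrc2c, Taf15 and Kdm6b the 4 hyper points also lie above all 5 control points.

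Nuclear noncoding and imprinted transcripts rose at several loci. Malat1, an abundant RNA of nuclear speckles, read 691.8, 875.4, 979.9, 1504.9 and 1183.2 in hypo and 2198.0, 2315.4, 2069.6, 2245.2 and 2793.1 in hypo+ (1.17 ± 0.17, adjusted p = 0.00386). Rian, a maternally expressed noncoding RNA, rose by 0.79 ± 0.16 (adjusted p = 0.0196), its groups being 686.7 to 1147.6 and 1266.0 to 2146.5. Meg3, transcribed from the same imprinted cluster, read 1991.4 to 5092.4 and 3375.3 to 4639.1 and had 0.35 (adjusted p = 0.465) at the brightest of its 10 probe sets. Tested singly (limma over probe sets), 4 of those 10 rose, by 0.92, 0.96, 1.10 and 0.71 (adjusted p = 0.0236, 0.0309, 0.0291 and 0.0396), and the mean of its probe sets had 0.63. Of 11 measured nuclear noncoding RNAs 2 rose, 0 fell and 9 were positive (median 0.298). Neat1, the scaffold RNA of paraspeckles, had 0.30 (adjusted p = 0.19), and Snhg11, a host transcript of small nucleolar RNAs, 0.88 (adjusted p = 0.0751), or 1.08 (adjusted p = 0.0191) without hypo replicate 4. Ipw, an imprinted noncoding RNA that was picked after its values were seen, rose by 0.50 (adjusted p = 0.0282).

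Peg3, a paternally expressed zinc finger gene, read 912.8, 926.4, 790.3, 1657.2 and 1023.2 in hypo and 1924.8, 2208.2, 2351.9, 2257.4 and 2326.5 in hypo+. Hypo replicate 4 was the highest of its group but still below every hypo+ array, and the change was 1.08 ± 0.16 (adjusted p = 0.00386), or 1.25 (adjusted p = 8.35e-05) without it. Of 27 imprinted genes 2 rose, Peg3 and Rian, 0 fell and 20 were positive, with a median of 0.156 and, without hypo replicate 4, of 0.240. Members that did not pass moved with that array. Dlk1, a Notch ligand relative, read 1309.5 on hypo replicate 4, 295.6 to 461.0 on the other hypo arrays and 678.6 to 1473.6 on the hypo+ arrays. Its change was 0.94 (adjusted p = 0.103), and 1.27 (adjusted p = 0.00579) without that array. Calcr had 0.99 (adjusted p = 0.063) and 1.24 (adjusted p = 0.00894), and Ndn, a gene of neuronal survival in the Prader-Willi region, 0.47 (adjusted p = 0.0517) and 0.59 (adjusted p = 0.00457).

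Genes of the ventral forebrain, where striatal neurons and cortical interneurons are born, were higher in hypo+ as a group. Dlx2, a homeobox gene of interneuron progenitors, read 1114.6, 922.8, 600.2, 873.2 and 1055.1 in hypo and 1310.1, 1710.3, 1928.6, 1436.7 and 1388.6 in hypo+, with no overlap. The change was 0.76 ± 0.15 (adjusted p = 0.0158). No other of the 20 GABAergic genes passed, 16 were positive and the list median was 0.193. Gad1, the enzyme that makes GABA, read 1161.4 to 1968.2 and 1551.7 to 2378.9, so the groups overlapped (0.40, adjusted p = 0.238), and Dlx1 had 0.43 (adjusted p = 0.182). Calb2, which encodes calretinin, had 0.54 (adjusted p = 0.135), and Sst and Cxcr4, of migrating interneurons, had −0.19 and −0.31.

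In the list of ventral forebrain and striatum 2 of 18 measured genes rose, 0 fell and 16 were positive, with a median of 0.228. Six3, a homeobox gene of striatal progenitors, read 238.5, 208.3, 172.9, 262.4 and 234.3 in hypo and 304.6, 317.4, 402.7, 330.3 and 339.1 in hypo+ (0.54 ± 0.12, adjusted p = 0.0296), while its dimmer probe sets had −0.09 and 0.01. Ebf1, of striatonigral neurons, read 367.1 to 447.3 and 506.0 to 588.6 (0.40 ± 0.10, adjusted p = 0.0454), and did not pass under 16 of 32 alternatives. Both genes separated the groups without overlap. Isl1, a LIM homeobox gene of the same neurons, read 2259.9 on hypo replicate 4 and 825.6 to 1269.1 on the other hypo arrays, against 1659.2 to 2285.5 in hypo+. Its change was 0.66 (adjusted p = 0.0988), and 0.88 (adjusted p = 0.00677) without that array. Tac1, the substance P precursor, had 0.60 (adjusted p = 0.0726) and, without that array, 0.74 (adjusted p = 0.0185). Lhx8, a marker of cholinergic progenitors, had 0.65 (adjusted p = 0.279) and Gsx2 0.47 (adjusted p = 0.192). The mean deviation of the list was −0.324 to −0.040 on hypo arrays and 0.074 to 0.273 on hypo+ arrays, and that of the GABAergic list −0.234 to −0.030 and −0.004 to 0.229, so neither overlapped. For the GABAergic list the nearest arrays, at −0.030 and −0.004, lay close together. Overlap of these scores after median centring was not tested. In whole-tissue RNA a larger number of cells of a type and more RNA per cell cannot be told apart.

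Genes of the dorsal cortex went the other way. Of 17 listed genes 16 were negative, with a median of −0.325, while 1 fell and 0 rose. Nfib, a transcription factor gene of cortical projection neurons and glia, read 5558.8, 6519.2, 6456.0, 4252.0 and 7372.5 in hypo and 5081.2, 3370.4, 3537.0, 4191.2 and 3562.0 in hypo+. Hypo replicate 4 lay within the hypo+ range, and the change was −0.60 ± 0.14 (adjusted p = 0.0367), or −0.72 (adjusted p = 0.0075) without it. Lhx2, a selector gene of cortical identity, read 1419.8 on hypo replicate 4, 2389.8 to 3014.2 on the other hypo arrays and 1051.6 to 1948.2 in hypo+. It had −0.76 (adjusted p = 0.116), and −0.95 (adjusted p = 0.0339) without hypo replicate 4. Neurod6 had −0.42 (adjusted p = 0.392), and Zbtb20, a zinc finger gene of hippocampus and astroglia, was the positive member at 0.36. The mean deviation of the dorsal list was −0.396 on hypo replicate 4, 0.179 to 0.454 on the other hypo arrays and −0.411 to 0.131 in hypo+. Without that array the list median was −0.480.

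Among neurons of the deep cortical layers, Fezf2, which specifies projection neurons to spinal cord and brainstem, read 1884.2, 1536.4, 1631.1, 1093.3 and 2449.2 in hypo and 1376.7, 816.7, 806.6, 1062.4 and 762.7 in hypo+. The lowest hypo array, replicate 4, fell below the highest hypo+ array, and the change was −0.80 ± 0.18 (adjusted p = 0.0356), or −0.95 (adjusted p = 0.00933) without it. Lmo3, a LIM domain gene, read 1068.5 to 1235.2 and 704.7 to 976.2 without overlap (−0.39 ± 0.08, adjusted p = 0.0232). Crym, a cytosolic T3-binding protein, had −0.89 (adjusted p = 0.0848), Sox5 −0.54 (adjusted p = 0.223), and Foxp2, of corticothalamic neurons, 0.45 (adjusted p = 0.159). A dimmer probe set of Sox5, at a mean signal of 191.3 in hypo and 78.5 in hypo+, fell by 1.01 (limma over probe sets, adjusted p = 0.00053). Thus 2 of 12 deep layer genes fell and 0 rose (median −0.156). In the upper layer list of 13 genes Cux2 rose by 0.42 (adjusted p = 0.0461), with 265.3, 313.7, 248.0, 260.0 and 318.9 in hypo and 383.9, 381.6, 360.9, 469.4 and 341.5 in hypo+. Without hypo replicate 4 it had 0.40 (adjusted p = 0.0664). Its other 2 probe sets had −0.12 and −0.15, and the mean of all 3 had 0.05. Cux2 did not pass under 23 of 32 alternatives. The upper layer median was −0.102.

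Among 13 genes of intermediate progenitors 1 fell. Sstr2, a somatostatin receptor gene used as a marker of intermediate progenitors, read 1752.3, 864.5, 950.2, 764.4 and 1163.8 in hypo and 776.0, 510.5, 572.5, 667.4 and 628.1 in hypo+ and fell by 0.72 (adjusted p = 0.0437). Sstr2 did not pass under 15 of 32 alternatives. Eomes, which defines these cells, had −0.45 (adjusted p = 0.202) at its brightest probe set, or −0.62 (adjusted p = 0.0295) without hypo replicate 4. Its other probe set, at a mean signal of 1868.0 in hypo and 1141.8 in hypo+, fell by 0.67 (limma over probe sets, adjusted p = 0.0381). The 13 genes of the list had 9 negative values and a median of −0.234. Trnp1, a nuclear protein gene of neural progenitors, fell by 0.54 (adjusted p = 0.0443). Its other probe set had 0.20, and it did not pass under 20 of 32 alternatives. Among 19 radial glia and Notch genes 0 passed (median −0.059), and among 36 genes of the cell cycle 0 passed, 26 were negative and the median was −0.108. Cdkn1b, an inhibitor of cyclin-dependent kinases, had −0.62 (adjusted p = 0.0758), or −0.70 (adjusted p = 0.0474) without hypo replicate 4, and Cdk4 −0.28 (adjusted p = 0.0605).

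**Figure D3:**
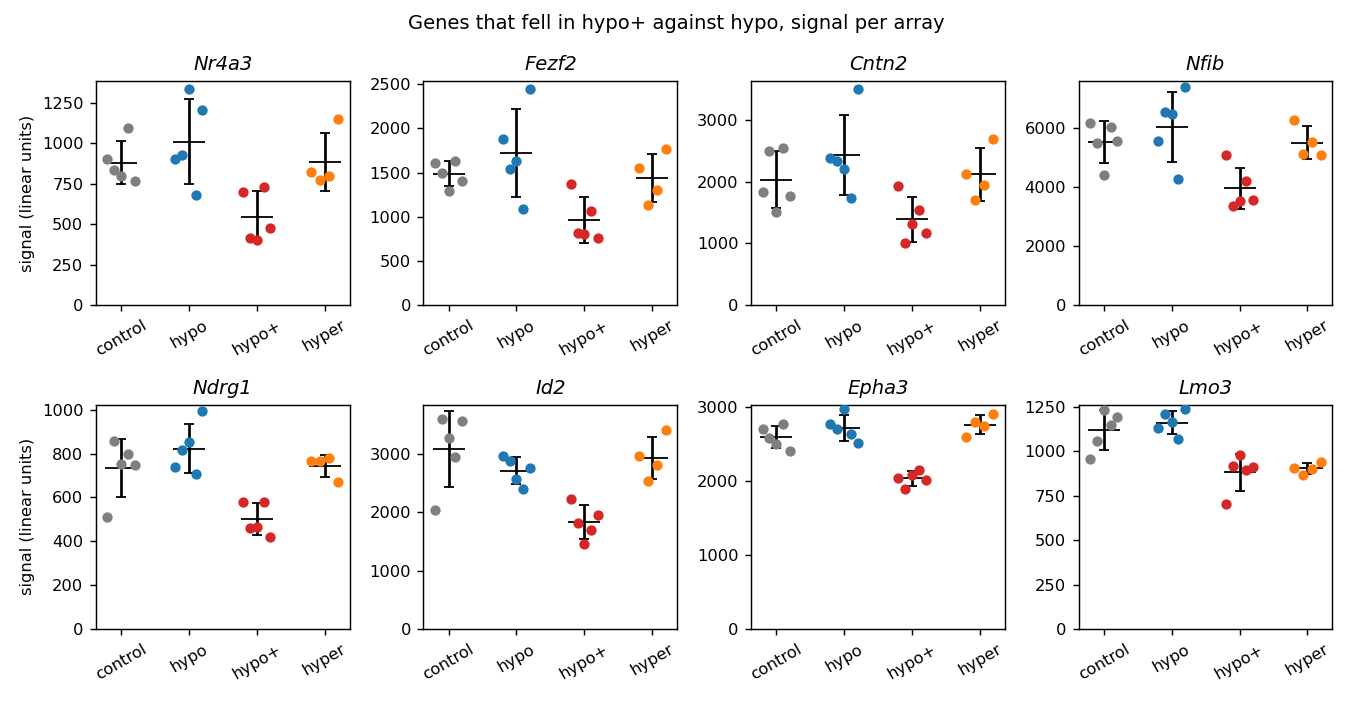
Signal per array (y axis, linear units, starting at 0) of 8 genes that fell in hypo+ against hypo, in all 4 groups. Points are arrays, horizontal bars group means and whiskers 1 SD. Ndrg1, Id2, Epha3 and Lmo3 have no overlap of hypo and hypo+, while for Nr4a3, Fezf2, Cntn2 and Nfib the lowest hypo point, replicate 4, lies below the highest hypo+ point.

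Surface molecules of axons and their guidance held falls and rises. Epha3, an ephrin receptor gene, read 2769.3, 2703.2, 2982.4, 2643.0 and 2512.6 in hypo and 2041.0, 1893.2, 2087.1, 2157.8 and 2012.2 in hypo+ (−0.41 ± 0.06, adjusted p = 0.00386). Sema3f, a secreted repellent, fell by 0.45 ± 0.10 (adjusted p = 0.0309), from 1527.4 to 1912.9 down to 992.6 to 1399.8. Its other probe sets had 0.03 and −0.0009, and the mean of its probe sets had −0.14. Neither gene had an overlap between the groups, and 2 of 36 axon guidance genes fell while 0 rose (median 0.032). Cntn2, a contactin of early cortical axons, read 1739.1 to 3501.0 and 1000.0 to 1933.4, with an overlap, and fell by 0.79 (adjusted p = 0.0479), whereas L1cam, an adhesion molecule of the same superfamily, rose by 0.44 (adjusted p = 0.0454). These were the called genes among 19 contactins and relatives, of which 14 were positive (median 0.154). Cntn2 and L1cam did not pass under 18 and 22 of 32 alternatives, and the other probe set of L1cam had 0.11. In the list of migration and reelin signalling Pafah1b1, the Lis1 gene of nuclear movement, fell by 0.20 (adjusted p = 0.0437), and had −0.20 (adjusted p = 0.0533) without hypo replicate 4. The call of Pafah1b1 was kept under only 8 of 32 alternatives. Its other probe sets had −0.29, −0.21, 0.34 and 0.90, the last with an adjusted p of 0.000415 (limma over probe sets). Dab1, the reelin adaptor, had −0.50 (adjusted p = 0.061), or −0.59 (adjusted p = 0.0259) without hypo replicate 4. Tested singly (limma over probe sets), Dab1 probe sets fell by 0.50, 0.56 and 0.49 (adjusted p = 0.046, 0.0147 and 0.026). The others had 0.01 and −0.20 and did not pass. The other 16 of 17 did not pass, Dab1 included.

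Actin regulators rose in 3 of 28 cases, with 0 falls and 20 positive values (median 0.064, and −0.007 after median centring). Cap1, an actin monomer recycling protein, read 71.0, 152.7, 120.2, 93.8 and 140.9 in hypo and 299.6, 303.1, 238.0, 276.8 and 255.5 in hypo+, with no overlap (1.08 ± 0.21, adjusted p = 0.0186). Arpc4, a subunit of the Arp2/3 complex, rose by 0.30 and the profilin gene Pfn2 by 0.21 (adjusted p = 0.0339 each). Of 29 glutamate and GABA receptor genes 24 were positive (median 0.161). The only call among them was a fall of 0.50 in Grik2, a kainate receptor gene (adjusted p = 0.0453). Its other probe sets had −0.11, −0.07 and 0.39, and the mean of all its probe sets had −0.07. Grik2 did not pass under 20 of 32 alternatives. Cacna2d2, an auxiliary subunit of calcium channels outside the lists, read 343.6 to 575.6 in hypo and 668.9 to 909.4 in hypo+ and rose by 0.76 ± 0.14 (adjusted p = 0.0125).

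Several signalling genes passed. Ptch1, the hedgehog receptor and a target of the pathway, read 787.3, 719.7, 726.3, 1113.2 and 689.1 in hypo and 1082.5, 1380.1, 1325.8, 1353.6 and 1222.3 in hypo+ (0.65 ± 0.12, adjusted p = 0.0115). Only hypo replicate 4 reached the hypo+ range. Shh itself had 0.59 (adjusted p = 0.0638) and Gli1, another target, −0.05. Thus 1 of 13 hedgehog genes rose, and the list median was −0.035. Id2, an inhibitor of neuronal differentiation, read 2397.0 to 2953.0 and 1457.2 to 2225.6 without overlap and fell by 0.57 ± 0.14 (adjusted p = 0.0443). The other Id2 probe sets had −0.35 each and did not pass, and Id2 did not pass under 18 of 32 alternatives. Id3 had −0.40 (adjusted p = 0.0552) and the BMP receptor gene Bmpr1a −0.37 (adjusted p = 0.0517), so 1 of 18 BMP and Id genes fell and 0 rose (median −0.024). Without hypo replicate 4 Bmpr1a had −0.40 (adjusted p = 0.0424). Fgf9 rose by 0.61 (adjusted p = 0.0262), Igfbp3, an insulin-like growth factor binding protein, fell by 0.48 (adjusted p = 0.0162), and Wnt7b, a ligand made by deep layer neurons, fell by 0.53 (adjusted p = 0.0318).

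Ndrg1, a gene induced by low oxygen, read 738.1, 817.3, 853.0, 708.4 and 994.2 in hypo and 578.6, 461.6, 465.5, 579.3 and 418.9 in hypo+, with no overlap (−0.68 ± 0.12, adjusted p = 0.0115). It was the 1 fall among 20 genes of hypoxia and glycolysis, and Aldoa, a glycolytic aldolase, the 1 rise (0.37, adjusted p = 0.0437). Nr4a3, an orphan nuclear receptor gene that neuronal activity can induce, read 677.6 to 1335.4 and 402.7 to 730.7 and fell by 0.85 (adjusted p = 0.0287), while the other 16 immediate early genes did not pass. The dimmer probe sets of Nr4a3 had −0.09 and −0.06, and the mean of all its probe sets had −0.34. Nr4a3 did not pass under 9 of 32 alternatives. Rpl32, a ribosomal protein gene, fell by 0.30 ± 0.05 (adjusted p = 0.0115), from 9699.1 to 11210.0 down to 7982.2 to 9035.0. It was the 1 call among 39 cytosolic ribosome genes, of which 33 were negative with a median of −0.072. Zfhx3, a large homeobox gene of postmitotic neurons, had the largest rise, from 389.6, 592.3, 380.6, 857.4 and 230.6 in hypo to 1114.1, 915.5, 1277.3, 1623.5 and 1516.0 in hypo+ (1.43 ± 0.30, adjusted p = 0.0262). Its relative Zfhx4 had 0.63 (adjusted p = 0.227). The 1 call among 15 oligodendrocyte genes was Cnp, whose enzyme belongs to myelin, with 342.8 to 454.1 in hypo and 469.2 to 664.3 in hypo+ (0.55, adjusted p = 0.0181). Of 44 lists, that of sex chromosome genes left aside, 18 had no gene past the threshold, and their medians lay between −0.108 and 0.353.

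The highest of those medians belonged to markers of hypothalamus and thalamus, regions that lie beside the cortex. Of 20 such genes 15 were positive and 0 passed, and 7 read under 100 on all 10 arrays. Their summed signal was 1405 to 3044 in hypo and 1647 to 5049 in hypo+. Sim1, a hypothalamic transcription factor gene, read 14.2, 28.0, 25.5, 85.2 and 21.9 in hypo and 115.3, 17.0, 174.4, 184.8 and 73.0 in hypo+, so that hypo replicate 4 was high and hypo+ replicate 2 low. Hmx3, a homeobox gene of the same region, had 74.6 on hypo replicate 4, 14.5 to 16.2 on the other hypo arrays and 27.5 to 107.3 in hypo+. Its change was 0.89 (adjusted p = 0.0999), and 1.13 (adjusted p = 0.0242) without that array. Tcf7l2, high in thalamic neurons, ranged from 37.16 to 758.11 in hypo and from 45.39 to 1275.31 in hypo+. The imprinted genes Dlk1, Calcr and Peg3 were high on the same hypo array as Sim1 and Hmx3, replicate 4. The part of these markers in the imprinted, ventral and dorsal differences was not tested. The median of the hypothalamus and thalamus list was 0.353 with all arrays and 0.382 without hypo replicate 4. Sums of other tissues overlapped between hypo and hypo+: 15789 to 21595 and 16490 to 19179 for 11 choroid plexus genes, 2134 to 2616 and 2221 to 2420 for 11 microglial genes, 5950 to 7696 and 6575 to 7271 for 15 vascular genes, and 4705 to 10218 and 5416 to 6967 for 10 meningeal genes.

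**Figure D4:**
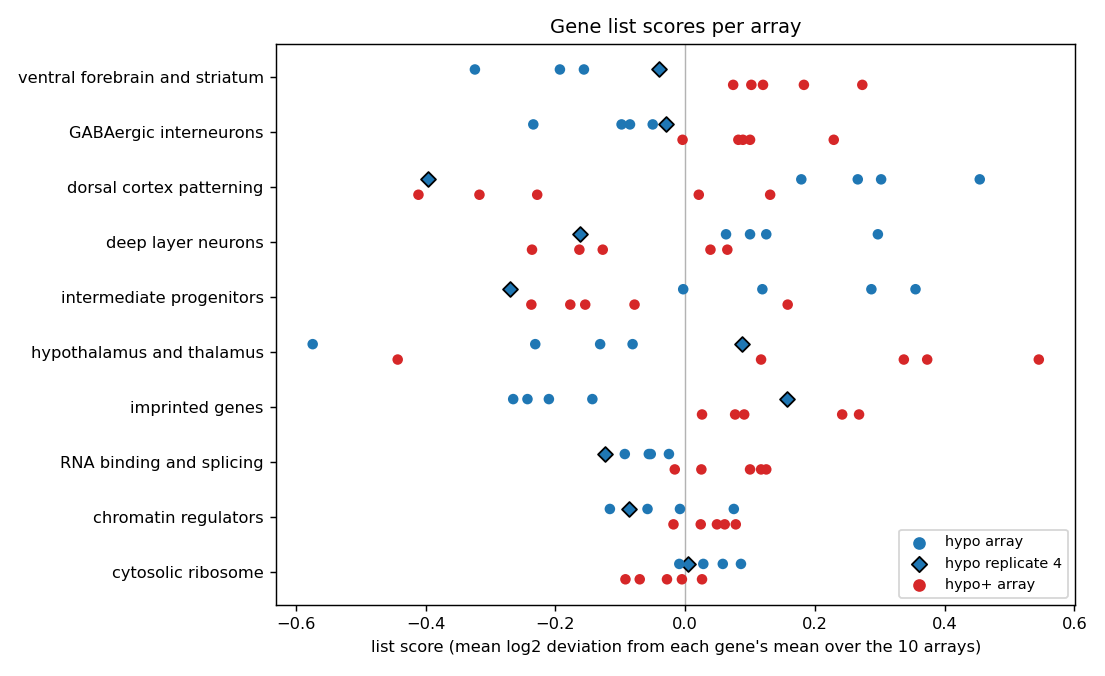
Mean log2 deviation of each list's genes from their mean over the 10 arrays (x axis), for 10 gene lists and each hypo (blue) or hypo+ (red) array, with hypo replicate 4 as a black-edged diamond. The groups do not overlap for ventral forebrain, GABAergic and RNA-binding genes, and hypo replicate 4 lies among the hypo+ arrays for dorsal cortex and imprinted genes. For RNA-binding genes the nearest hypo and hypo+ arrays are at −0.025 and −0.016.

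Genes through which thyroid hormone itself is read out or handled did not pass with all arrays in the fit. Of 17 brain genes that hormone is known to induce 0 passed (median −0.001), and of 18 genes of hormone transport, metabolism and reception 0 passed (median −0.028). Since only 1.58% of all genes passed, counts of 0 in lists this small do not set these genes apart. Klf9, a direct receptor target, read 137.7, 142.8, 150.8, 155.5 and 153.2 in hypo and 205.2, 152.1, 149.5, 188.7 and 181.5 in hypo+, with an overlap at 2 hypo+ arrays (0.20 ± 0.12, adjusted p = 0.474). Sema3c, a secreted semaphorin gene, read 639.9, 855.3, 909.0, 847.7 and 1031.5 in hypo and 1086.6, 1122.4, 934.6, 1122.9 and 1032.2 in hypo+ (0.31 ± 0.10, adjusted p = 0.114). Hr, a corepressor gene that hormone induces in brain, had −0.19, Dio2 −0.41, Thra −0.12, Thrb −0.03 and Ttr, the carrier of T4 in cerebrospinal fluid, −0.02. Without hypo replicate 4, Dio2 had −0.53 (adjusted p = 0.0372), Crym −1.10 (adjusted p = 0.0217) and Shh 0.72 (adjusted p = 0.0191). The 7 probe sets of Klf9 differed from each other. The 1 that passed rose by 0.60 ± 0.14, from a mean signal of 39.7 to 76.0 (limma over probe sets, adjusted p = 0.0283), while the other 6 had −0.03 to 0.22 and did not pass. The authors' deposited table gives that probe set a signed fold of 1.94 with an adjusted permutation p of 0.0028.

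**Figure D5:**
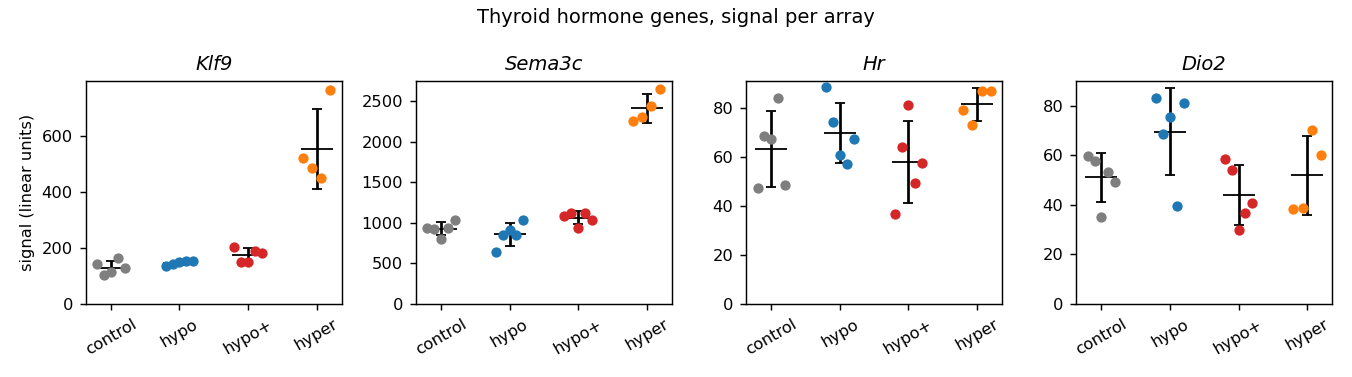
Signal per array (y axis, linear units, starting at 0) of 4 thyroid hormone genes in all 4 groups. Points are arrays, horizontal bars group means and whiskers 1 SD. Klf9 (449.4 to 765.2) and Sema3c (2247.4 to 2644.7) are high in the 4 hyper arrays, and none of the 4 genes passed the threshold in hypo+ against hypo.

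The response to hormone under goitrogen was then set against the response to the higher dose without goitrogen, (hypo+ minus hypo) minus (hyper minus control), in which dose and goitrogen differ together and cannot be told apart. Only 2 of 17967 genes passed (0.0111%), whereas at an unadjusted p under 0.05 there were 1399 (7.79%). Klf9 differed by −1.65 ± 0.18 (adjusted p = 0.000441) and Sema3c by −1.04 ± 0.14 (adjusted p = 0.00706), both with the smaller response under goitrogen. Without hypo replicate 4 the count was 25, without control replicate 2 or 4 it was 4, and without hypo+ replicate 1 and hyper replicate 4 it was 1. For Prrc2c (0.40), Taf15 (0.24) and Kdm6b (0.07) the difference had adjusted p of 0.553, 0.874 and 0.97, and their hyper arrays read 1900.0 to 2221.3, 320.0 to 516.2 and 3120.2 to 3514.7, each above the highest control of 1589.3, 282.7 and 2375.5. For Peg3 the difference was 1.18 ± 0.23 (adjusted p = 0.161), its hyper and control means being 1349.9 ± 223.6 (SD, n = 4) and 1446.1 ± 250.2 (SD, n = 5). Epha3, with −0.50 ± 0.08 (adjusted p = 0.0696), read 2602.4 to 2904.8 in hyper and 2409.2 to 2775.4 in control.

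Hyper and control arrays are not among the 10 arrays compared here, though they entered the estimate of the spread behind the calls. In them, 141 of the 186 genes that rose were higher in hyper than in control (75.8%, against 54.2% of all genes), and 72 of the 97 that fell were lower (74.2%, against 45.8%). The median hyper minus control change was 0.12 for the former and −0.06 for the latter. In 27 of the 186 every hyper array lay above every control array (14.5%, against 1.49% of all genes), and in 12 of the 97 every hyper array lay below (12.4%, against 1.37%). All 4 groups share 1 normalization and 1 estimate of the spread, so these shares are not independent of the calls. No test was made of the shares. Of the 186 rises 178 had a hypo mean below the control mean and 177 a hypo+ mean above it, against 10265 and 7482 of all 17967 genes. Of the 97 falls 82 had a hypo mean above and 96 a hypo+ mean below the control mean, against 7592 and 10385 of all genes. These positions follow in part from the choice of genes by hypo+ against hypo.

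Probe sets of 1 gene did not always move together. Of the 283 called genes 80 had 1 probe set. The others had 479 further probe sets, of which 338 (70.6%) changed in the same direction, 45 also passed in that direction and 3 passed in the opposite one. Those 3, named because of this, belong to Pafah1b1 (0.90 against −0.20), Map3k7, a kinase of TGF-beta signalling (0.40 against −0.42), and Kansl1, a histone acetylation factor (0.39 against −0.24). Both probe sets of Srrm2 rose (0.75 and 1.06), as did both of Cap1 (1.08 and 0.82), and the 5 of Ndrg1 lay between −0.69 and −0.46. Of Malat1 3 of 7 rose, with 0.70 to 1.34, while another had −0.04. Peg3 had 1.08 and 0.18 at its brighter probe sets and −0.01 at both others, and Kdm6b 0.80, 0.47, 0.11 and 0.02. Tested singly, 913 of 45037 probe sets rose (2.03%) and 508 fell (1.13%). Among 10962 probe sets that could not be tied to 1 gene, 319 rose (2.91%) and 55 fell (0.502%), against 594 (1.74%) and 453 (1.33%) of the 34075 with 1. The authors' deposited table puts 2181 probe sets (4.84%) below an adjusted permutation p of 0.05, 1370 up and 811 down, and the probe sets of all 283 called genes are among them. Of the named falls, Hsd17b13 and Zscan5b, at 17.1 to 73.6 signal units, carry an absent call in that table.

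Promoters of the called genes, 250 bases before to 50 after the start in RefSeq's GRCm38.p6 table, were searched for the receptor hexamer AGGTCA on both strands (TGACCT on the opposite one). At least 1 promoter held it for 20 of 145 genes that rose (13.8%) and 10 of 79 that fell (12.7%), against 2321 of 14132 genes measured (16.4%). The tandem form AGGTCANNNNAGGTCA occurred in 0. A match is a description of letters and not a binding site. The windows of Lsm11 (chr11:45944886-45945185, minus strand), which rose and holds 2 hexamers, of Dpp6 (chr5:27261685-27261984, plus strand), a potassium channel subunit gene that rose by 0.66 (adjusted p = 0.0252) and holds 1 in 1 of its 3 windows, and of Klf9 (chr19:23140976-23141275, plus strand), which did not pass and holds none here, show the cases. Capitals mark the hexamer.
Lsm11: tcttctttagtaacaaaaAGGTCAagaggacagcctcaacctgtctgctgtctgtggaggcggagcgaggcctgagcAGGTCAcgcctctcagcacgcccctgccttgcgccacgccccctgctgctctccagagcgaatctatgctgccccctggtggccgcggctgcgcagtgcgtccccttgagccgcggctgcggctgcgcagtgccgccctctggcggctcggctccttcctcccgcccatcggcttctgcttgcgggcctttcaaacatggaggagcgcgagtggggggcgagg
Dpp6: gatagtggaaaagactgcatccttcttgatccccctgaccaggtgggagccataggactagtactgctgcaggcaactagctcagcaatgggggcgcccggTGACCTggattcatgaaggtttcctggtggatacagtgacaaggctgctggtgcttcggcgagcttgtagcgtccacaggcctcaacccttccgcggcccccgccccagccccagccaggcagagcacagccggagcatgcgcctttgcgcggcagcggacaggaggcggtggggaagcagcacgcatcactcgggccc
Klf9: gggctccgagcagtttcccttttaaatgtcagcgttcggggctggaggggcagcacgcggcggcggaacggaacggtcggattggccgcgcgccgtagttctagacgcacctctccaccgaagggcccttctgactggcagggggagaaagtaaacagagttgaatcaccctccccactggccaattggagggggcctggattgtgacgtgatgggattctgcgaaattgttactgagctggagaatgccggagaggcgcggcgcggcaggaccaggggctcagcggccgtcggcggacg
The first hexamer of Lsm11 begins 232 bases before the start, and that of Dpp6 149 bases before it, on the opposite strand.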

How the data were processed

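Each probe set has 1 linear intensity per array, summarised and normalized by the authors before deposition. RMA and MAS5 were used, per the submitters' processing notes, with no version and no word on which made the values. The authors' second table gives, per the file headers, the authors' signed fold change, a score whose sign is the direction of change, and permutation p-values, deposited raw and adjusted; these are printed only where that table is named.

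Of 45101 probe sets 64 controls were left out, and 34075 with exactly 1 current mouse gene gave 17967 genes, each by its brightest probe set over the 19 arrays. Values were taken as log2(value + 32), which understates changes of dim genes. Group means over all 19 arrays were fitted together with limma 3.58.1 under R 4.3.3 (lmFit and eBayes, 15 residual degrees of freedom, two-sided), with Benjamini-Hochberg adjustment over all genes and a threshold of 0.05. Errors after ± are SE for log2 changes and SD for signals. The fit was tested on simulated data. No pair of arrays held identical values.

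The genes, the 45 lists and the alternatives were chosen with earlier results of these data known. The genes named are the 20 largest rises and falls, called list members (up to 6 per list), 12 preset hormone genes and genes called for the difference of responses. Of these only some are named, and others stand beside them to show a list's spread. Further genes, among them Lsm11, Dpp6, Upf3b and Ipw, were added outside these rules with their values known. Alternatives changed the arrays, scaling, pseudocount, probe set rule, filter, prior and threshold. Same-numbered hypo and hypo+ arrays deviated together with correlations of −0.078 to 0.19, so numbers were not taken as pairs. Some genes of the lists are not reported here.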

Additional observations from a re-analysis of the deposited data

Results flagged for a closer look

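Of 342 sets of 5 arrays (126 genes and 45 list scores, in hypo and in hypo+) 27 had 1 array far from the other 4 by Dixon's criterion, which chance alone meets in about 1 of 20. Genes such as Xist, Ddx3y, Calcr and Hmx3 were included with their values known, so the count cannot be set against that rate. Hypo replicate 4 was the outlying array in 11 cases. It was high for Peg3 (1657.2), 5330434G04Rik (45.0), Ptch1 (1113.2), Nova1 (1337.6), Dlk1 (1309.5), Calcr (101.1), Sim1 (85.2) and Hmx3 (74.6), and low for Neurod6 (2176.0). Among list scores it was low for BMP signalling and Id genes (−0.156) and high for imprinted genes (0.157). The change of Nova1 was 0.53 (limma, adjusted p = 0.0876), and 0.71 (adjusted p = 0.00457) without hypo replicate 4.

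Hypo+ replicate 1 was apart for Xist (68.8), Ddx3y (695.9), Eif2s3y (504.4), Kdm5d (365.9), Uty (194.7), the sex chromosome score (1.307) and 3110039M20Rik (858.1). Hypo replicate 1 was high for Ankrd28 (770.4) and Bmpr1a (1817.2) and low for L1cam (1289.4). Hypo replicate 5 was high for Trnp1 (561.3), Sema3f (1912.9) and the microglia score (0.156). Hypo+ replicate 2 was low for 5330434G04Rik (41.5), hypo+ replicate 3 high for Lhx8 (923.8) and hypo+ replicate 5 high for the choroid plexus score (0.232). None of these patterns was tested for its cause.

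The hormone response under goitrogen differed from that to the 4 times higher dose without it for Klf9 (−1.65, adjusted p = 0.000441) and Sema3c (−1.04, adjusted p = 0.00706), by a test of the difference in limma. Dose and goitrogen cannot be told apart there. Every one of the 4 hyper arrays was above all 5 controls in both genes.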

How the results depend on the processing

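The count of 283 genes in hypo+ against hypo depended on several choices. It was 64 with only the 10 arrays, 438 with quantile normalization, 113 with median centring, 126 with a pseudocount of 1, 466 with array weights, 169 without both arrays with Y-linked signal, 127 at an unadjusted p under 0.05 with 1.5-fold, and 1421 for probe sets taken singly. With 1 array left out it ranged from 85 to 476. It lay within 1.5 times of 283 with a pseudocount of 100 (359), the mean of probe sets (196), filters on signal (292) and present calls (260), a prior with trend (268) and probe sets with 1 deposited symbol (280, chosen after seeing the data). With the replicate number as a block 192 genes passed and 2 for the difference of responses; 1 of 5 hypo arrays correlated best with its own number.

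The difference of responses, 2 genes, gave 1 with median centring, without both arrays with Y-linked signal and with 1 deposited symbol, 4 with a pseudocount of 100, 11 with array weights, 6 for single probe sets, 233 at an unadjusted p under 0.05 with 1.5-fold, and 2 to 25 with 1 array left out. Of 67 named genes past the threshold 10 passed in every alternative scored gene by gene: Malat1, Taf15, Peg3, Cap1, Prrc2c, Cacna2d2, Ndrg1, Srrm2, Lsm11 and Upf3b. Single probe sets and the 1.5-fold threshold, which Upf3b (0.56) falls short of, were not scored gene by gene. The sign turned for Pafah1b1 (0.11) and Kansl1 (0.04) with the mean of probe sets, and for Six3 (−0.09) with 1 deposited symbol. Of 1440 list medians 1409 stayed within the spread between arrays. Dim genes, as Hsd17b13 and Zscan5b, are limited by signal over background. The causes were not tested.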
